A study of Mus musculus with 6 samples.

Results

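The early mouse embryo switches on its own genome at the 2C stage, and mouse embryonic stem cells (mESCs) occasionally re-enter a state that resembles it, the 2C-like state. Entry is driven by activators that switch on the transcription factor Dux and its targets, and it is held back by chromatin regulators that keep Dux and the MERVL retroviral elements silent. The data described here are those of 10 such regulators among the 55401 genes listed in each expression table. They are listed by name and no measured value enters the rule, although earlier results of these data were known when they were chosen: 3 activators (Dppa2, Dppa3 and Dppa4) and 7 repressors (Smchd1, Kdm1a, Lin28b, Ncl, Zmym2, Rif1 and Morc3). Every one of them was found in the tables and passed the filter on low values, a mean over all libraries of at least 0.5 TPM, a measure of transcript abundance scaled by transcript length and library total, as did 14156 genes in all.

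Poly(A) RNA was sequenced from 46C cells, an mESC line that carries a green fluorescent reporter in the Sox1 locus, grown in serum with LIF and inhibitors of GSK3 and MEK. The 6 libraries form 3 groups of 2. The control libraries, titled 46C control, were taken as the cells that the study's methods describe with the biotin tag alone. Their titles do not name the tag. The other groups stably express Rbbp4 with that tag (Rbbp4 OE) or the tagged form of Rbbp7 (Rbbp7 OE). Rbbp4 and Rbbp7 are closely related WD40 histone-binding proteins shared by PRC2, NuRD, Sin3 and, for Rbbp4, the CAF-1 histone chaperone. No further treatment is given for any group. The study's methods describe lentiviral delivery into cells that also express the biotin ligase BirA, followed by drug selection. If the control cells had not been through these steps, effects of the steps could not be told apart from those of overexpression in either line. The sources do not say whether a line is 1 clone or a pool, or whether the 2 libraries of a group came from separate cultures, so the p-values below measure the spread between these libraries, which may be technical. The labels give no batch.

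Each overexpressed gene was highest in its own line. Rbbp4 stood at 146 and 147 TPM in the control libraries, at 270.0 and 271 with Rbbp4 OE and at 144 and 143 with Rbbp7 OE. Rbbp7 stood at 239 and 237 TPM in the control libraries, at 208 and 217 with Rbbp4 OE and at 725 and 748 with Rbbp7 OE. The 8 mESC markers summed to between 3483 and 3814 TPM in every library, a sum led by Pou5f1 in which members moved apart. At an adjusted p under 0.05 in the limma test below, 2 of the 8 rose in Rbbp4 OE, where 3.29% of all genes did so. These were Pou5f1 (by 0.25 on the log2 scale) and Utf1 (by 0.46). Another 2 fell, Nanog by 0.23 and Tfcp2l1 by 0.52, where 8.07% of all genes did so. Without overlap, 5 of the 8 lay below control and 2 above, where 37.1% and 20.8% of all genes did so. The median of the 8 was -0.25, beside -0.08 over all genes. In Rbbp7 OE 1 rose (Utf1, by 0.54), where 0.487% of all genes were called. The markers named here were picked once their values were known. The 6 primitive endoderm markers summed to at most 2.49 TPM. Other marker sums moved with the groups. The 6 trophoblast markers summed to 46.1 and 49.2 TPM in the control libraries and to between 59.7 and 67.4 in the 4 overexpression libraries, where Tfap2c, Krt8 and Eomes were higher than in control while Cdx2 (at most 3.7 against at least 4.88 TPM) and Gata3 (at most 0.51 against at least 0.83) were lower. The 6 neural markers summed to 120.7 and 121.9 TPM in Rbbp4 OE against 96.1 to 105.5 elsewhere, with Neurog2 at 0 throughout, and the 6 fibroblast markers summed to between 4.48 and 15.7 TPM, lowest in the control libraries, with Lum at 0 throughout. Their part in the results below was not tested.

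None of the 10 regulators changed in either overexpression line at an adjusted p under 0.05 (limma on log2(TPM + 1), Benjamini-Hochberg adjustment over all 14156 genes). In Rbbp4 OE against control this count of 0 stands beside 1609 of all genes tested, or 11.4%, and in Rbbp7 OE against control beside 69, or 0.487%. The Rbbp4 OE calls were 466 higher and 1143 lower (29.0% higher), a split that became 716 and 712 (50.1% higher) with median-of-ratios scaling and 677 and 821 (45.2% higher) after quantile normalization. At an unadjusted p under 0.05, 2 regulators were lower in Rbbp4 OE (Rif1 and Morc3) where 29.6% of all genes passed, and none in Rbbp7 OE where 15.4% passed. Lin28b, which passed the filter through the control libraries alone, is left out of these counts and described on its own. The stricter thresholds of the study, an adjusted p under 0.01 with a fold change over 2, also gave 0 regulators in both comparisons, against 0.516% and 0.0353% of all genes, and 0 in Rbbp4 OE against Rbbp7 OE, where 0.0494% did so. The median log2 fold change of the other 9 regulators was -0.15 in Rbbp4 OE and -0.0068 in Rbbp7 OE, where that of all genes was -0.08 and -0.0037. Since TPM shows RNA per total RNA of the culture, fewer cells that express a gene and less of its RNA per cell cannot be told apart.

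**Figure D1:**
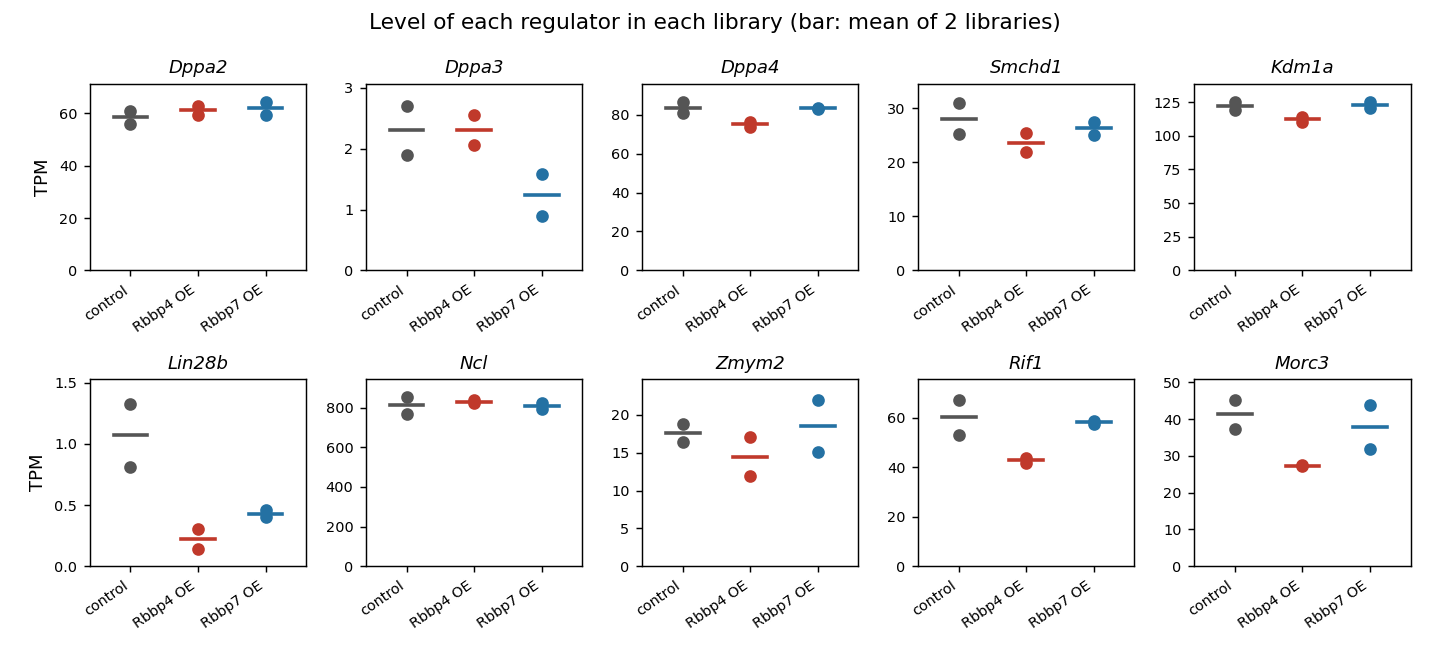
TPM of the 10 regulators in each of the 6 libraries, with 1 panel per gene, each vertical axis starting at 0, points for libraries and bars for the means of 2. Dppa4, Kdm1a, Rif1, Morc3 and Lin28b are lower in both Rbbp4 OE libraries than in both control libraries, as are 37.1% of all tested genes. Dppa3 and Lin28b are lower than control in both Rbbp7 OE libraries, as are 23.4% of all tested genes. Lin28b passed the filter through the control libraries alone.

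In the control libraries the regulators differed widely in level. Ncl was the most abundant at 812 ± 58.6 TPM (SD, n = 2), ahead of Kdm1a at 122.2 ± 4.4 and Dppa4 at 83.7 ± 4.10. Rif1 at 60.3 ± 10.2 TPM and Dppa2 at 58.6 ± 3.54 overlapped between libraries and could not be ordered. Morc3 (41.3 ± 5.70), Smchd1 (28.1 ± 4.09) and Zmym2 (17.7 ± 1.70) followed, each clear of the next in both libraries. Dppa3 at 2.30 ± 0.566 TPM and Lin28b at 1.07 ± 0.368 were the lowest. TPM is scaled by transcript length, so these levels can be set beside each other. In Rbbp4 OE the place of Rif1 and Dppa2 was resolved, with Rif1 at 43.0 ± 1.39 TPM and Dppa2 at 61.3 ± 2.33.

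Dppa2 and Dppa4 are small SAP-domain proteins that bind DNA as a pair and switch on Dux and other early embryonic genes. Their genes lie side by side on chromosome 16, with start sites 20.2 kb apart (GRCm38; Dppa4 from 48283733 to 48294237 and Dppa2 from 48303908 to 48319723, both on the plus strand). Dppa2 stood at 56.1 and 61.1 TPM in the control libraries, 59.6 and 62.9 with Rbbp4 OE and 59.5 and 64.5 with Rbbp7 OE. The 3 groups overlapped, and its log2 fold change was 0.06 in Rbbp4 OE (95% interval -0.13 to 0.26) and 0.08 in Rbbp7 OE (-0.11 to 0.27). For Dppa4 the values were 86.6 and 80.8 TPM in the control libraries, 73.8 and 76.5 with Rbbp4 OE and 83.5 and 83.1 with Rbbp7 OE. Both Rbbp4 OE libraries were below all the others, by 0.15 on the log2 scale against control (95% interval -0.31 to 0.0020, adjusted p = 0.174), a gap that shrank to 0.05 when libraries were scaled by median-of-ratios instead. The ratio of Dppa4 to Dppa2 was 1.54 and 1.32 in the control libraries, 1.24 and 1.22 with Rbbp4 OE and 1.40 and 1.29 with Rbbp7 OE, so the control and Rbbp7 OE ranges overlapped and the Rbbp4 OE values lay below both. Morc1, a germline ATPase of the same family as Morc3, starts 127 kb from Dppa2 and stood between 44.3 and 47.9 TPM in all libraries.

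Dppa3 (also known as Stella) is a maternal factor that keeps the methylation cofactor Uhrf1 off chromatin in oocytes and early embryos. It lies on chromosome 6 from 122626410 to 122630272, in a cluster of pluripotency genes that includes Nanog. Its levels were 2.7 and 1.9 TPM in the control libraries, 2.56 and 2.06 with Rbbp4 OE and 1.59 and 0.890 with Rbbp7 OE. Control and Rbbp4 OE libraries overlapped, whereas both Rbbp7 OE libraries lay below every other library. The log2 fold change was 0.01 in Rbbp4 OE (95% interval -0.58 to 0.61) and -0.57 in Rbbp7 OE (-1.16 to 0.03, adjusted p = 0.343), and the overexpression lines differed by 0.58 (-0.02 to 1.17, adjusted p = 0.276). For so low a gene these intervals of log2(TPM + 1) are wide, and the differences are smaller than those of the level itself.

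Several neighbours of Dppa3 fell in Rbbp4 OE, the line in which Dppa3 itself was at 0.01. Of the 16 tested genes that start within 500 kb of it, 5 fell in Rbbp4 OE and none rose at an adjusted p under 0.05, against 8.07% lower and 3.29% higher among all genes. Slc2a3, the high-affinity glucose transporter GLUT3, starts 175 kb away and stood at 533 and 594 TPM in the control libraries, 299.9 and 303 with Rbbp4 OE and 376 and 390.0 with Rbbp7 OE. It fell by 0.90 on the log2 scale in Rbbp4 OE (SE 0.0621, adjusted p = 0.00348) and by 0.56 in Rbbp7 OE (adjusted p = 0.0334), with no overlap between any of the 3 groups. In Rbbp4 OE, Necap1, an adaptor of clathrin-coated vesicles, fell by 0.70 (adjusted p = 0.0148) and M6pr, a receptor that carries enzymes to lysosomes, by 0.40 (adjusted p = 0.0216). Gdf3, a TGF-beta family ligand of pluripotent cells whose start is 16.3 kb from that of Dppa3, fell by 0.32 (adjusted p = 0.0249). The fifth gene was Nanog, the pluripotency homeobox factor 81.1 kb away, which was named after its values were seen and went from 484 and 521 TPM in control to 434 and 419.9 in Rbbp4 OE, by -0.23 (adjusted p = 0.0393). In Rbbp7 OE only Slc2a3 of these 16 passed, and that call was kept in 0 of 6 fits with 1 library left out and in 7 of 11 other settings. Slc2a3 kept its call in 5 of 6 fits of Rbbp4 OE that left out 1 library, and was lost without Rbbp4 OE replicate 2 (adjusted p = 0.0816), whereas Necap1 kept it in 2 and M6pr, Gdf3 and Nanog in 1 each, the fit without control replicate 1. The call of Nanog held in 5 of 11 other settings. With median-of-ratios scaling Gdf3 was at -0.22 (adjusted p = 0.0611).

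**Figure D2:**
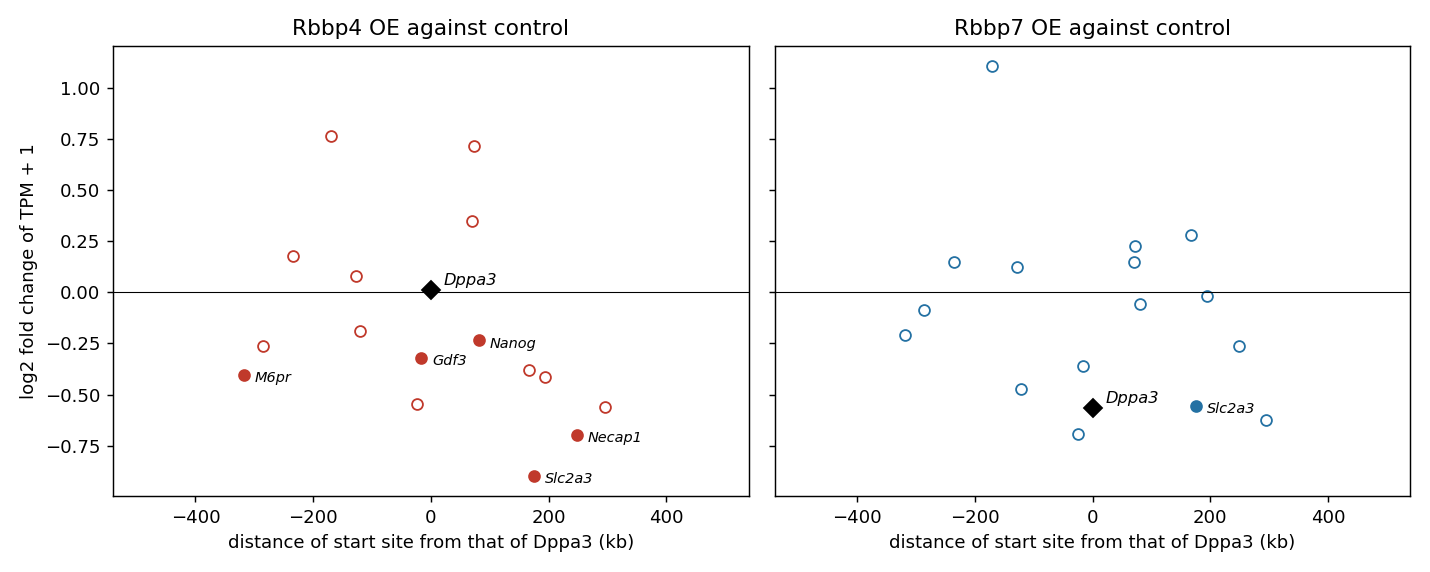
Log2 fold change of TPM + 1 (vertical axis) of Dppa3 (black diamond) and the 16 tested genes around it against the distance of their start sites from that of Dppa3 in kb (horizontal axis), with filled circles for an adjusted p under 0.05. In Rbbp4 OE 5 neighbours are filled, all below 0, while Dppa3 sits at 0.01, and in Rbbp7 OE 1 is filled and Dppa3 sits at -0.57.

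No other regulator had more than 2 neighbours that fell. Among the 69 tested genes within 500 kb of any of the 10, those around Dppa3 included, 5 rose and 8 fell in Rbbp4 OE, with a median of -0.02, where 3.29% and 8.07% of all genes did so. Gm21972, 226 kb from Ncl, was among those that rose. It stood at 0 TPM in both control libraries and at 1.12 to 2.26 in the overexpression libraries. It thus passed the filter through the overexpression libraries alone, and its direction was set by the filter. B3gnt7, a glycosyltransferase gene 56.6 kb from Ncl, rose in both lines, by 0.87 in Rbbp4 OE (adjusted p = 0.00905) and 0.83 in Rbbp7 OE (adjusted p = 0.0412). Hnrnpr, an RNA-binding protein gene 292 kb from Kdm1a, fell by 0.34 in Rbbp4 OE (adjusted p = 0.0264). Leaving out 1 library at a time kept the Rbbp4 OE call of B3gnt7 in 2 of 6 fits and that of Hnrnpr in 1, and the Rbbp7 OE call of B3gnt7 in none.

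Rif1 binds G-quadruplexes and late-replicating chromatin, sets replication timing and is required for silencing of retroviral elements in mESCs. It came closest to the threshold. The gene (chromosome 2, 52072832 to 52122383) stood at 53.0 and 67.5 TPM in the control libraries, 43.9 and 42.0 with Rbbp4 OE and 59.0 and 57.5 with Rbbp7 OE. Both Rbbp4 OE libraries were below the lowest of the other 4. Against control the log2 fold change was -0.47 (SE 0.118, 95% interval -0.76 to -0.18, unadjusted p = 0.00694, adjusted p = 0.0557), a ratio of 0.722 in TPM + 1, and against Rbbp7 OE it was -0.43 (-0.72 to -0.14, adjusted p = 0.157). In Rbbp7 OE against control it was -0.04 (-0.32 to 0.25), within the spread of the controls. The control libraries themselves differed by 0.34 on this scale. Without control replicate 1 the change in Rbbp4 OE was -0.64 (adjusted p = 0.0264), and without control replicate 2 it was -0.30 (adjusted p = 0.0961).

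Morc3 is a nuclear-body ATPase that silences endogenous retroviruses together with the histone chaperone Daxx. It lies on chromosome 16 from 93832121 to 93876073. Levels of 45.3 and 37.2 TPM in control compared with 27.4 and 27.4 with Rbbp4 OE and 31.95 and 43.9 with Rbbp7 OE. The Rbbp4 OE pair was tight and below every other library, while Rbbp7 OE libraries spanned most of the range between it and the controls. With Rbbp4 OE the log2 fold change was -0.57 (SE 0.166, 95% interval -0.97 to -0.16, adjusted p = 0.0778), a ratio of 0.674 in TPM + 1. In Rbbp7 OE it was -0.13 (-0.53 to 0.28, adjusted p = 0.773), and the direct difference of the lines was -0.44 (-0.84 to -0.04, adjusted p = 0.235). Morc3 and Morc1 stood near each other in control, and the ratio of Morc1 to Morc3 went from 0.985 and 1.19 there to 1.73 and 1.75 in Rbbp4 OE, with 1.47 and 1.09 in Rbbp7 OE. Chaf1b, the p60 subunit of CAF-1 that starts 51.8 kb from Morc3, stood between 79.2 and 93.8 TPM over the 6 libraries.

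Lin28b binds precursors of let-7 microRNAs and blocks their maturation. It lies on chromosome 10 from 45376620 to 45486395 on the minus strand. It was read at 0.810 and 1.33 TPM in control, at 0.300 and 0.140 with Rbbp4 OE and at 0.400 and 0.460 with Rbbp7 OE, so both lines lay below control without overlap, and Rbbp4 OE below Rbbp7 OE. The mean was 1.07 ± 0.368 TPM in control, 0.220 ± 0.113 in Rbbp4 OE and 0.430 ± 0.0424 in Rbbp7 OE (SD, n = 2), so Lin28b passed the filter of 0.5 through the control libraries alone, and being below control in both lines was a condition of its being tested. On the log2(TPM + 1) scale, which shrinks differences between values near 0, the difference from control was -0.75 in Rbbp4 OE (SE 0.246, 95% interval -1.35 to -0.15, adjusted p = 0.101) and -0.52 in Rbbp7 OE (-1.12 to 0.08, adjusted p = 0.382). In Rbbp4 OE it was -1.88 with a pseudocount of 0.1 and -0.22 with a pseudocount of 5, and its adjusted p lay between 0.0673 and 0.236 over all alternatives (0.0983 with no filter). Lin28a, the paralog that mESCs use, was well above Lin28b in every library, at 13.4 and 14.7 TPM in the control libraries, 13.6 and 13.7 with Rbbp4 OE and 11.97 and 14.4 with Rbbp7 OE. The ratio of Lin28a to Lin28b was 16.6 and 11 in the control libraries, 45.4 and 97.7 with Rbbp4 OE and 29.9 and 31.3 with Rbbp7 OE.

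The promoter windows of Morc3, whose Rbbp4 OE pair lay below every other library, and of Lin28b, the lowest of the regulators, are shown as the start regions of these genes. Each window runs from 250 bases before to 50 bases after a RefSeq start (build GRCm38.p6), and is written 5′ to 3′ on the gene's strand with motif matches in capitals. The Morc3 window is chr16:93831871-93832170 on the plus strand, and the Lin28b window is chr10:45470152-45470451 on the minus strand, which lies inside the GENCODE span of the gene.
Morc3: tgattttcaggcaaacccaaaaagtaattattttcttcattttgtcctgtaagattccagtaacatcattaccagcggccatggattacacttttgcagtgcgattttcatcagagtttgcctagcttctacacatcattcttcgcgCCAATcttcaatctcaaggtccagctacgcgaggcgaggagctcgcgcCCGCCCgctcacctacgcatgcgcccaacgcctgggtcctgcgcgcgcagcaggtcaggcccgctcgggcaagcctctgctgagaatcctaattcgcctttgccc
Lin28b: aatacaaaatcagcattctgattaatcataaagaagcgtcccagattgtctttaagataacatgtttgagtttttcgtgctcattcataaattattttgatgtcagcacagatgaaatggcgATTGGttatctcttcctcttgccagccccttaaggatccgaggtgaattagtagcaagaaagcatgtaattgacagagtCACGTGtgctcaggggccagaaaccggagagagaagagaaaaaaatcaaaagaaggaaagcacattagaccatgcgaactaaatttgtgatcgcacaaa
Capitals mark the CCAAT box (CCAAT, or ATTGG on the other strand), the GC box (GGGCGG or CCGCCC) and the E-box (CACGTG). The TATA box (TATAAA) was searched too, on both strands. Morc3 held 20 CpG dinucleotides, a CCAAT box 103 bases before the start and a GC box 55 bases before it. Lin28b held 8 CpGs, an inverted CCAAT box 128 bases before the start and an E-box 49 bases before it. Among all 32817 RefSeq windows, 37.4% held a CCAAT box, 35.6% a GC box, 7.15% an E-box and 13.6% a TATA box, and the median window held 7 CpGs. RefSeq windows were matched for 6 of the 10 regulators, 7 windows in all, and the others held 29 CpGs (Kdm1a), 33 (Ncl), 40 (Smchd1) and 29 and 34 (Zmym2).

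Smchd1, a non-canonical SMC protein with an ATPase domain, silences the inactive X chromosome and the Dux repeat arrays. It stood at 25.2 and 31.0 TPM in the control libraries, 25.4 and 21.9 with Rbbp4 OE and 27.5 and 25.1 with Rbbp7 OE, with overlap among all 3 groups. Its difference in Rbbp4 OE was -0.24 on the log2 scale (95% interval -0.56 to 0.09, adjusted p = 0.294). Zmym2, a zinc finger protein that binds SUMO and joins Kdm1a complexes, stood at 16.5 and 18.9 TPM in the control libraries, 17.1 and 11.9 with Rbbp4 OE and 15.1 and 22.0 with Rbbp7 OE. The libraries of each overexpression line differed by more than the group means did, and the interval in Rbbp4 OE ran from -0.84 to 0.26. Kdm1a (LSD1), which removes methyl groups from histone H3, stood at 119 and 125 TPM in the control libraries, 110.5 and 114 with Rbbp4 OE and 121 and 125 with Rbbp7 OE. Both Rbbp4 OE libraries were below the rest, by -0.12 against control (95% interval -0.26 to 0.02, adjusted p = 0.231), which became -0.01 with median-of-ratios scaling. Ncl, the nucleolar protein nucleolin that represses Dux with LINE1 RNA and Trim28, stood at 771 and 854 TPM in the control libraries, 838 and 826 with Rbbp4 OE and 796 and 826 with Rbbp7 OE. All Ncl values of the overexpression lines fell within the control range, and the intervals were -0.10 to 0.18 in Rbbp4 OE and -0.14 to 0.14 in Rbbp7 OE.

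**Figure D3:**
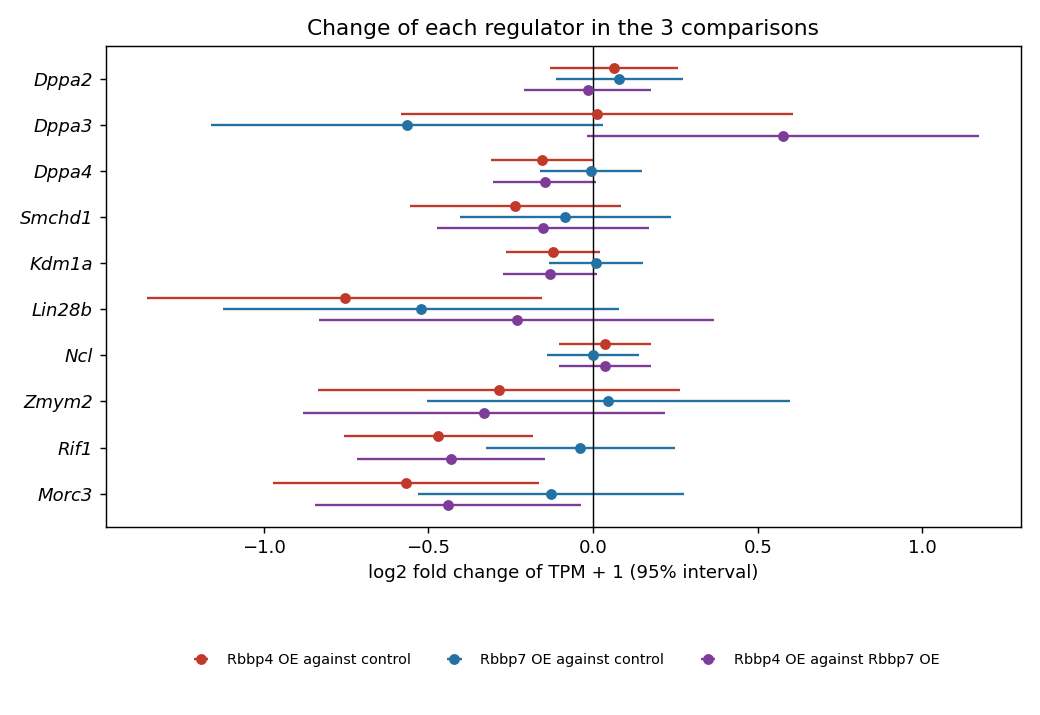
Log2 fold change of TPM + 1 (horizontal axis) with its 95% interval for each of the 10 regulators in the 3 comparisons, from 1 limma fit of 6 libraries. The intervals of Rif1, Morc3 and Lin28b in Rbbp4 OE against control and those of Rif1 and Morc3 in Rbbp4 OE against Rbbp7 OE lie below 0, no adjusted p is under 0.05, and Lin28b passed the filter through the control libraries alone.

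Counted by libraries alone, and again without Lin28b, 4 of 9 regulators had both Rbbp4 OE libraries below both control libraries (Dppa4, Kdm1a, Rif1 and Morc3) and none had both above, in a comparison where 37.1% of all genes lay below and 20.8% above. In Rbbp7 OE, 1 regulator lay below control (Dppa3) and none above, where 23.4% of all genes lay below and 21.2% above. Directly compared, Rbbp4 OE lay below Rbbp7 OE for 4 of the 9 and above it for Dppa3 alone, where 38.6% and 16.1% of all genes did so. None of the 10 passed an adjusted p under 0.05 in that direct test and 2 (Rif1 and Morc3) passed an unadjusted p under 0.05, beside 0.304% and 19.0% of all genes. Both overexpression comparisons share the control libraries, so their values are not independent of each other.

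Transcript length moved with the Rbbp4 OE values. Over all genes the median log2 fold change in Rbbp4 OE went from 0.0999 for genes whose longest annotated transcript is at most 1000 nt to -0.205 for those over 7000 nt, and in Rbbp7 OE only from 0.0155 to -0.0087. The control libraries differed along the same axis, with a median difference (replicate 2 minus replicate 1) of 0.219 for genes over 5000 nt and -0.0147 for those up to 2000 nt. The longest transcripts of Rif1 (8509 nt), Smchd1 (7052 nt), Zmym2 (6974 nt) and Lin28b (5402 nt) are in the long range, and that of Morc3 is 4179 nt. After length and GC content were regressed out of each library, a step added after seeing the data, Rif1 was at -0.27 (adjusted p = 0.0824), Morc3 at -0.42 (0.194), Zmym2 at -0.08 and Smchd1 at -0.03. Lin28b was at -0.57 (adjusted p = 0.175), but it passed the filter through the control libraries alone. Being below control was thus a condition of its being tested. In the same fit Ncl, whose longest annotated transcript is 8202 nt, rose by 0.24 (adjusted p = 0.0201). The correction used each gene's longest annotated transcript, which need not be the one expressed. Under all other alternatives Ncl lay between -0.04 and 0.14 in Rbbp4 OE and did not pass.

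**Figure D4:**
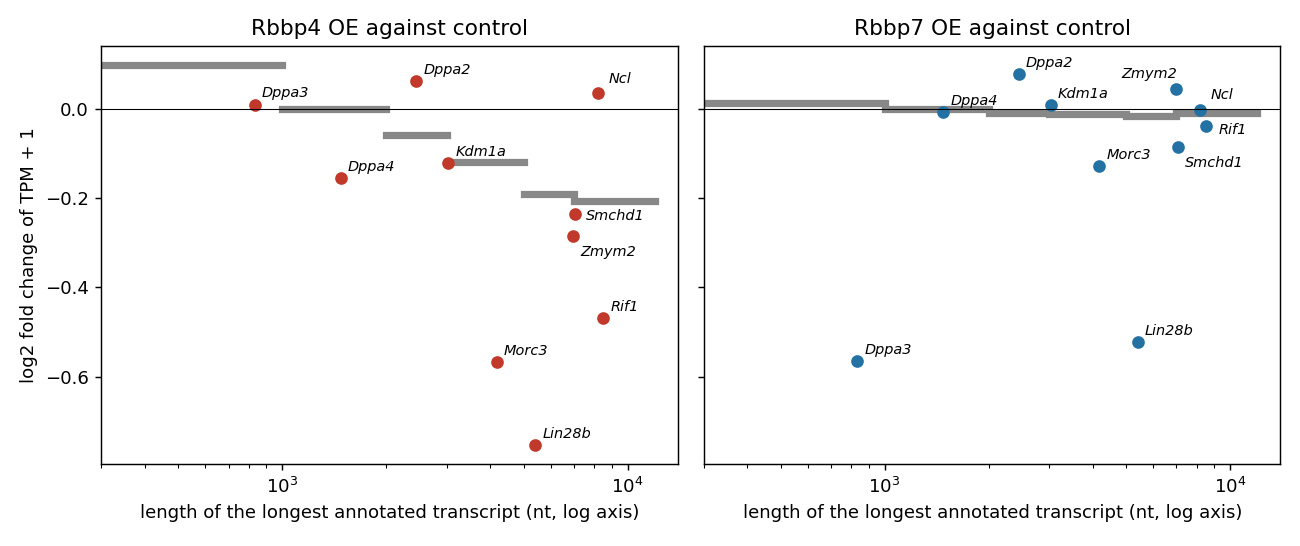
Log2 fold change of TPM + 1 (vertical axis) of the 10 regulators (points) against the length of their longest annotated transcript (horizontal log axis), with grey bars for the median of all tested genes in each length range. In Rbbp4 OE the bars step down from 0.0999 to -0.205 and in Rbbp7 OE they stay near 0.

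Genes whose products work beside the 10 regulators included several that changed. The list of 22 partners had 1 gene that rose and 6 that fell in Rbbp4 OE, against 3.29% higher and 8.07% lower among all genes, and 1 that fell in Rbbp7 OE, where 0.487% of all genes were called in either direction. The list's medians were -0.13 and -0.10, beside -0.08 and -0.0037 over all genes. The 3 CoREST scaffolds that hold Kdm1a and histone deacetylases on nucleosomes all fell in Rbbp4 OE. Rcor2, the most abundant, stood at 173 and 176 TPM in the control libraries, 135 and 128 with Rbbp4 OE and 124 and 131 with Rbbp7 OE, and fell in both lines, by 0.40 (adjusted p = 0.0153) and 0.45 (adjusted p = 0.0474). Rcor1 went from 8.17 and 9.64 TPM to 5.12 and 5.71 in Rbbp4 OE, by -0.62 (adjusted p = 0.0397), and Rcor3 from 3.81 and 4.51 to 1.58 and 1.85, by -0.92 (adjusted p = 0.0283). Hdac1, the deacetylase of the same complex, went from 190.3 and 199 TPM to 152 and 152 (-0.35, adjusted p = 0.0153). Its gene starts 207 kb from Rbbp4 on chromosome 4. Ppp1cb, a catalytic subunit of the phosphatase that Rif1 recruits, fell by 0.53 (adjusted p = 0.0325). Npm1, the nucleolar partner of Ncl, rose from 4420 and 4645 TPM to 6040 and 6011 (0.41, adjusted p = 0.00574). Not every listed partner moved the same way. Hdac2 overlapped with control (0.05), and Phf21a lay above it without passing (0.36). Gse1 (-0.41) and Fbl (-0.12) lay below it without passing. Without overlap, 14 of the 22 partners lay below control in Rbbp4 OE and 2 above, where 37.1% and 20.8% of all genes did so. In Rbbp7 OE the values of Rcor1 (-0.17), Rcor3 (-0.20) and Hdac1 (-0.11) did not pass. Nor did those of Ppp1cb (-0.44, adjusted p = 0.166) and Npm1 (0.20, adjusted p = 0.0961). Each lay apart from control without overlap there, in the same direction as in Rbbp4 OE. In Rbbp7 OE 10 of the 22 partners lay below control and 2 above, where 23.4% and 21.2% of all genes did so. No partner differed between the lines at an adjusted p under 0.05. Kdm1b, the paralog of Kdm1a, stood between 3.54 and 5.49 TPM and was at -0.29 in Rbbp4 OE (adjusted p = 0.345), and none of the 11 tested paralogs passed in any comparison.

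Of 23 other tested repressors of the 2C-like state 3 fell in Rbbp4 OE and none rose, which is near the 8.07% and 3.29% of all genes. None passed in Rbbp7 OE (0.487% of all genes), and the medians were -0.10 and -0.05. Chaf1a, the large subunit of CAF-1, went from 64.7 and 73.0 TPM to 49.2 and 51.9 in Rbbp4 OE (-0.44, adjusted p = 0.0264), with 65.2 and 64.3 in Rbbp7 OE. The direct difference of the lines for Chaf1a was -0.35 (adjusted p = 0.126), so a difference between them was not shown. Ctcf, the insulator protein, went from 68.2 and 88.1 TPM to 50.3 and 46.8 (-0.67, adjusted p = 0.0307). Trim28, the corepressor that partners Ncl, fell by 0.17 (adjusted p = 0.0491), and was at -0.06 (adjusted p = 0.611) with median-of-ratios scaling. Chaf1b (-0.07) and Lin28a (-0.04) overlapped with control in Rbbp4 OE. Pias4, a SUMO ligase that modifies Dppa2, lay below control in both Rbbp4 OE libraries, at 60.5 and 63.3 TPM against 67.3 and 65.7 (-0.10, adjusted p = 0.331), and passed only after the length and GC correction (-0.27, adjusted p = 0.0466). All 3 turned positive under median-of-ratios scaling (0.04, 0.06 and 0.0039). Zfp42 (Rex1), a repressor of MERVL, was at 0.02 in Rbbp4 OE and 0.15 in Rbbp7 OE (adjusted p = 0.83 and 0.200).

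Of 3 other tested activators 1 rose in Rbbp4 OE and none fell (3.29% and 8.07% of all genes), and none passed in Rbbp7 OE (0.487%). Dux was matched only as Duxf3, which was read at 0.07 TPM in 1 control library and listed at 0 in the other 5. Nelfa, an elongation factor subunit that opens the 2C program, stood between 52.4 and 59.2 TPM and was at 0.11 in Rbbp4 OE (adjusted p = 0.344). Trp53, which activates Dux after DNA damage, rose from 395 and 419 TPM to 506 and 493 in Rbbp4 OE (0.29, adjusted p = 0.0201), and stood at 490.4 and 479 in Rbbp7 OE (0.25, adjusted p = 0.107). These calls on partners and other regulators rested on few libraries. Leaving out 1 library at a time kept each of these 10 genes called in Rbbp4 OE (Trim28 is on 2 of the lists) in 0 to 2 of 6 fits, those without a control library, and the call of Rcor2 in Rbbp7 OE in none. The same fits called 1574 of all genes in Rbbp4 OE without control replicate 1 and between 47 and 282 without any 1 of the other libraries.

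**Figure D5:**
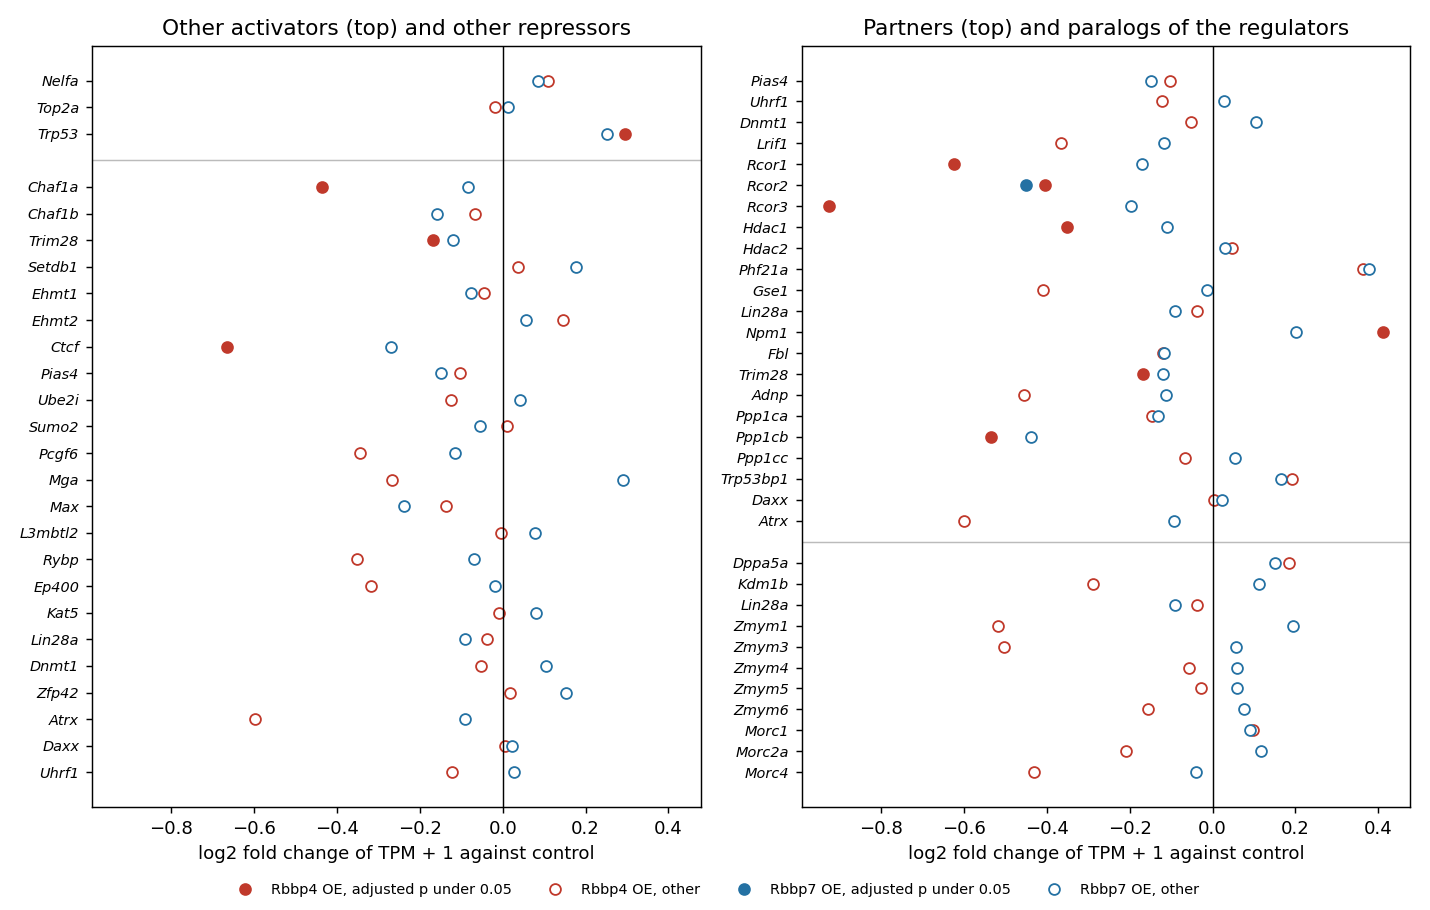
Log2 fold change of TPM + 1 against control (horizontal axis) of other activators and repressors of the 2C-like state (left) and of partners and paralogs of the 10 regulators (right), in Rbbp4 OE (red) and Rbbp7 OE (blue), filled where the adjusted p is under 0.05. Rcor2 is filled in both lines, and Rcor1, Rcor3, Hdac1, Ppp1cb, Trim28, Chaf1a, Ctcf, Npm1 and Trp53 in Rbbp4 OE.

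The genes that the regulators control were at low levels in every library. The 21 markers of the 2C-like state, among them the Zscan4 and Usp17l families, summed to 5.33 and 3.74 TPM in the control libraries, 0.990 and 2.19 with Rbbp4 OE and 1.85 and 2.24 with Rbbp7 OE, so the sum was lower in all 4 overexpression libraries than in either control library. Tcstv1, Tcstv3, Tdpoz1 and Tdpoz2 were listed at 0 in every library. Only Zscan4f and Gm5662 passed the filter on low values, and they did so through the control libraries, so their direction was set by the filter and no test of them is given. Zscan4f stood at 1.18 and 0.85 TPM in control and between 0.2 and 0.57 in the overexpression libraries. Copies within these families are nearly identical, so how reads were shared among them is uncertain. The summed level of the 3 activators was 145.4 and 143.8 TPM in control, 135.9 and 141.5 with Rbbp4 OE and 144.5 and 148.5 with Rbbp7 OE. In unscaled TPM both Rbbp4 OE sums were thus the lowest. Median-of-ratios size factors were 0.9937 and 1.065 in control, 0.9547 in both Rbbp4 OE libraries and 1.028 and 1.017 in Rbbp7 OE. That order is not kept when the sums are divided by them. The sum of the 7 repressors is mostly Ncl and is not given as a measure of the others.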

How the data were processed

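Poly(A) RNA-seq libraries of 3 groups with 2 replicates each were analysed. The authors deposited 1 table of TPM per library. Per the study's methods, reads were trimmed with Trim_galore 0.6.7, aligned to mm10 with STAR 2.7.0d and quantified by RSEM 1.3.3 with Gencode M25. TPM keeps no read counts, so the depth is unknown and no counting interval can be given. Between 19011 and 19691 genes were above 0 per library. Identifiers were matched to GENCODE M21 (GRCm38, 55141 of 55401). TPM values were tested as log2(TPM + 1) with limma 3.58.1 in R 4.3.3 (trend, two-sided, no covariates), in 1 fit of all 6 libraries with 3 residual and 3.103 prior degrees of freedom, for genes whose mean TPM reached 0.5, with Benjamini-Hochberg adjustment. The study used a count model, which TPM does not allow. The fit was tested on simulated data. The 10 regulators and all gene lists were chosen with earlier results of these data known. Genes were named if they were regulators, list members with an adjusted p under 0.05 or on a short list of names, and at most 6 neighbours within 500 kb with an adjusted p under 0.05. Nanog was added after its value was seen. Alternatives covered pseudocount, filter, scaling, fit, threshold, replicate block and omitted libraries. Replicate numbers did not pair libraries.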

Additional observations from a re-analysis of the deposited data

Results flagged for a closer look

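No regulator of the 2C-like state differed between the overexpression lines in the direct limma test. The 2 named genes that did are the overexpressed genes themselves: Rbbp4 (adjusted p = 0.00192, higher in both Rbbp4 OE libraries) and Rbbp7 (adjusted p = 8.31e-05, higher in both Rbbp7 OE libraries). Groups of 2 libraries are too small to test single libraries as outliers.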

How the results depend on the processing

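No regulator passed in Rbbp7 OE against control or in Rbbp4 OE against Rbbp7 OE under any alternative. In Rbbp4 OE against control 2 passed when the filter was raised to a mean TPM of 5 (Rif1, adjusted p = 0.0319, and Morc3, 0.0462), 1 with TPM rescaled over protein-coding nuclear genes (Rif1, 0.0494), 1 with robust limma (Rif1, 0.0487), 1 with the length and GC correction that was chosen after seeing the data (Ncl), and 0 to 1 when 1 library was left out (Rif1 without control replicate 1). The other alternatives gave 0. The stricter filter tests fewer genes, and the cause of the other moves was not tested. Over all genes the 1609 Rbbp4 OE calls became 709 without the filter, 2039 with the stricter one, 158 where only the 2 groups compared were fitted, 192 at the threshold of 0.01 and 47 to 1574 with 1 library left out, where a lone library is assumed to vary like the others. The 69 Rbbp7 OE calls became 9 without the filter, 137 with the stricter one, 36 with median-of-ratios scaling, 1 from the 2 groups alone, 7 at the threshold of 0.01 and 2 to 53 with 1 library left out. The 43 calls of the direct comparison became 28 without the filter, 8 from the 2 groups alone, 8 at the threshold of 0.01 and 8 to 98 with 1 library left out. The share of higher calls moved from 40.6% to 52.6% in Rbbp7 OE over protein-coding genes, and in the direct comparison from 58.1% to 72.4% with median-of-ratios scaling, 43.3% over protein-coding genes and 42.9% after the length and GC correction.

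With the replicate number as a block 0, 0 and 0 regulators passed in the 3 comparisons, beside 900, 9 and 9 of all genes. Deviations of same-numbered libraries correlated at -0.0263, 0.0336 and -0.0308, so the numbers were not taken as pairs.

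Values that changed sign were small and none had passed the test. In Rbbp4 OE against control the length and GC correction gave Dppa3 -0.0303 and Lin28a 0.0256, median-of-ratios scaling Lin28a 0.0631, Chaf1b 0.0390 and Pias4 0.00393, and quantile normalization Ncl -0.0182, Lin28a 0.0828 and Chaf1b 0.00397. In Rbbp7 OE against control the values were Dppa4 0.0104, Ncl 0.0421, Rif1 0.0116 and Rbbp4 0.0186 after the length and GC correction, Dppa4 0.00158 and Ncl 0.00825 with median-of-ratios scaling, Dppa4 0.0221 and Ncl 0.0289 over protein-coding genes, and Dppa4 0.0163, Ncl 0.0470 and Rbbp4 0.00405 after quantile normalization. In the direct comparison they were Dppa2 0.00883, Smchd1 0.00221, Rcor2 -0.0290, Ppp1cb 0.0447, Nelfa -0.00561, Pias4 -0.0317 and B3gnt7 -0.0269 after the length and GC correction, Dppa2 0.0814, Trim28 0.05001 and Ppp1cb 0.00249 with median-of-ratios scaling, and Dppa2 0.0425 and Ncl -0.0652 after quantile normalization. The cause was not tested.

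With 1 library left out, ranges that crossed 0 in Rbbp4 OE against control were -0.165 to 0.187 for Dppa3, -0.0375 to 0.110 for Ncl, -0.0975 to 0.0223 for Lin28a and -0.00925 to 0.0436 for Zfp42. In Rbbp7 OE against control they were -0.0563 to 0.0426 for Dppa4, -0.228 to 0.0602 for Smchd1, -0.0275 to 0.0454 for Kdm1a, -0.0739 to 0.0733 for Ncl, -0.209 to 0.303 for Zmym2, -0.209 to 0.133 for Rif1, -0.352 to 0.0956 for Morc3, -0.170 to 0.000509 for Chaf1a, -0.214 to 0.0330 for Lin28a and -0.105 to 0.327 for Kdm1b. In the direct comparison they were -0.0740 to 0.0415 for Dppa2, -0.243 to 0.0540 for Ppp1cb, -0.00760 to 0.0573 for Nelfa, -0.0706 to 0.176 for Lin28a and -0.0154 to 0.0887 for B3gnt7. Of the calls on other named genes, 153 comparisons with an alternative lost significance with the same direction. The depth of the libraries is unknown, so how far it limits the lowest genes, Dppa3 and Lin28b, cannot be stated.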
